A study of Homo sapiens with 14 samples.

Results

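The small nuclear RNA (snRNA) activating protein complex, SNAPc, is encoded by SNAPC1, SNAPC2, SNAPC3, SNAPC4 and SNAPC5. POU2F1, also called OCT1, helps to recruit it. These 6 genes, of 19970 protein-coding genes in the annotation, were followed in 2 lists of ChIP-seq peaks. They were taken by name. A promoter peak was a peak centred in the window that reaches from 2 kb before to 1 kb past any annotated transcription start site (TSS) of the gene. Any other peak centred between the ends of the gene was a gene-body peak. The genes had 5 peaks of the 20429 in the untreated list. Their peaks of the dTAG-V1 list numbered 10 of 35287.

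SNAPc binds the proximal sequence element, a short DNA element shared by the promoters of snRNA genes that RNA polymerase II transcribes and of those, such as U6, that RNA polymerase III transcribes. An upstream distal element of many snRNA promoters holds an octamer, bound by POU2F1, beside an SBS, bound by the zinc finger factor ZNF143 (mouse ZFP143). Both factors raise transcription of snRNA genes. SBS sites also occur at many protein-coding promoters, in a shorter form (SBS1) and in a form preceded by the letters ACTACA (SBS2). CTCF, another zinc finger factor, recognises a different motif.

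The cells were HEK293T, a line of human embryonic kidney cells, in which ZNF143 carries an FKBP12F36V degron tag (genotype ZNF143-FKBP). All samples used here were of 1 clone, HEK_CloneZD29, and both groups carried the tag. The groups were 4 untreated samples and 4 samples given 0.5 µM dTAG-V1, a compound that directs the tagged protein to degradation, for 30 min. The ChIP used a polyclonal antibody to ZNF143 from Proteintech. The paper reports that this antibody also cross-reacts with CTCF and that its signal at CTCF sites persisted and grew stronger after depletion. A peak is therefore a site of enrichment with this antibody and does not by itself mark ZNF143. The CTCF ChIP-seq samples, 3 untreated and 3 treated, were not analysed here. The comparison asked where this antibody enriched DNA before and after ZNF143 depletion, although the lists hold no measure of the remaining protein.

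Each condition was represented by 1 list of peaks with no value per replicate, so that no difference between conditions could be tested. The number of reads behind the lists is unknown. The score is an integer that the peak caller derived from the q-value of the peak, and the fold enrichment is the pileup at the summit over the local background. Both are on the scale of their own list. The median score was 157 among untreated and 114 among dTAG-V1 peaks, and the lowest score in decile 1 of each list was 6860 and 476. Peaks were therefore compared by their place in their own list, given as the percent of the list with the same or a higher score. A change of place is not a change of signal.

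Motif hits were found with matrices learned from peaks on chromosomes without any of the 6 genes. The letters held by most sites were ACTACATTTCCCAGNNTNC for SBS2, TTCCCAGCATCCCNTGCN for SBS1 and NNNCCACNAGGGGGCACN for CTCF, where N stands for any base. A hit was a match to a matrix, on either strand, with a chance of 5e-05 or less per position of random sequence. The random sequence had the base composition of the genome, so that this chance need not hold in promoters. The score of a hit is given in bits. The threshold was 5.39 bits and the highest possible score 31.0 bits for SBS2, 7.21 and 28.7 bits for SBS1, and 6.54 and 28.3 bits for CTCF. SBS1 and SBS2 share letters, so that their hits can overlap. At this threshold an SBS hit was present in 63.0% of all untreated peaks and 42.9% of all dTAG-V1 peaks, and a CTCF hit in 35.1% and 50.3%. Hits describe letters and do not show which protein was bound.

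The 2 hits of highest score that did not overlap in the untreated peaks of SNAPC3, SNAPC4 and SNAPC5 are shown first, because these promoters differed in the kind of motif they held. Weaker hits, not shown, could lie closer to a summit. All are in hg38 and are read 5′ to 3′ on the strand given. The letters of the hit are in capitals and 5 flanking bases on either side are in lower case.
SNAPC3, SBS2, chr9:15422737-15422755, minus strand: cagaaACTACATTTCCCGGCAGGCcatgg
SNAPC3, SBS2, chr9:15422810-15422828, plus strand: aagcaACTACAACTTCCATCACGCtctgc
SNAPC4, SBS1, chr9:136400236-136400253, minus strand: cggccGTCCCGGCGTGCCCCGCGcctca
SNAPC4, SBS1, chr9:136400549-136400566, plus strand: cttttTCCCCAGCCTGCCCTGCAtgctc
SNAPC5, CTCF, chr15:66497862-66497879, minus strand: ggcggGCGCCGGAAGGGGGCGCActcct
SNAPC5, CTCF, chr15:66498110-66498127, minus strand: aaagaTAGCCACTTGGTGGCACAccaca

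Of the 6 genes, 4 had a promoter peak in the untreated list (SNAPC3, SNAPC4, SNAPC5 and POU2F1), or 66.7% with a 95% Wilson interval of 30.0% to 90.3%. Among all protein-coding genes, 8097 of 19970 or 40.5% had one. In the dTAG-V1 list 5 of the 6 had a promoter peak, the same 4 and SNAPC2, or 83.3% (43.6% to 97.0%), against 48.2% of protein-coding genes. The promoter peaks of the 4 genes overlapped between the lists, as they did for 35.6% of protein-coding genes. SNAPC2 was the 1 gene with a promoter peak in the dTAG-V1 list and none in the untreated list, which held for 11.1% of protein-coding genes. SNAPC1 had no promoter peak in either list. The study's methods ask more replicates of an untreated peak than of a dTAG-V1 peak, and whether the deposited lists were filtered this way is not stated, so that presence in the dTAG-V1 list alone cannot be told apart from such a filter. Both intervals include the share of all genes, and they cover counting error only.

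**Figure D1:**
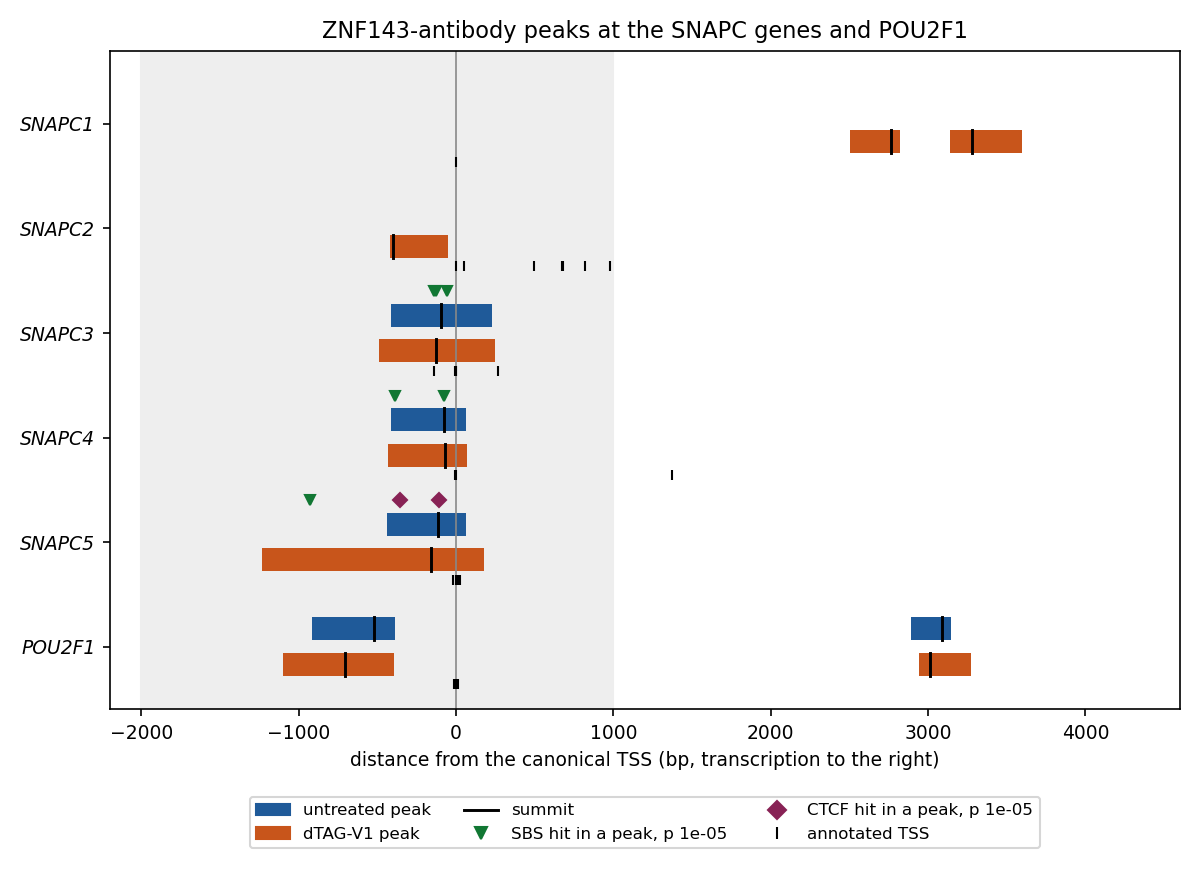
Peaks around the canonical TSS of each of the 6 genes, in bp, with transcription to the right. Blue bars are untreated peaks, orange bars dTAG-V1 peaks, black lines summits, green triangles SBS hits and purple diamonds CTCF hits at p 1e-05 or less within a peak, and short ticks annotated TSSs. The grey area is the promoter window of the canonical TSS. SNAPC3 and SNAPC4 have SBS hits beside their summits, SNAPC5 has a CTCF hit there, and the untreated and dTAG-V1 summits of SNAPC3 and SNAPC4 nearly coincide.

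SNAPC4 encodes the largest subunit of SNAPc, which contacts the proximal sequence element through its Myb repeats. The gene (ENSG00000165684.6) lies at chr9:136375567-136400176 on the minus strand. Its untreated promoter peak, chr9:136400108-136400582, was 475 bp wide and had a score of 6213, a fold enrichment of 20.9 and rank 2100 (10.3% of the list). Its dTAG-V1 peak, chr9:136400098-136400599, had a score of 1767, a fold enrichment of 13.0 and rank 1841 (5.22% of the list). The peak thus lay near the top of both lists, and 25.2% of the genes with an untreated promoter peak and 19.1% of those with a dTAG-V1 promoter peak had a best peak ranked as high or higher.

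The summits of the SNAPC4 peaks were 5 bp apart, 74 bp and 69 bp upstream of the canonical TSS. An SBS1 hit (21.7 bits) lay 0 bp from the untreated summit and 5 bp from the dTAG-V1 summit. In the untreated list 5.52% of peaks held an SBS1 site that scored as high. An SBS hit at p 1e-05 within 50 bp of the summit was present in 38.0% of the best untreated promoter peaks. In the dTAG-V1 list it was present in 23.8% of them. A further SBS1 hit (23.4 bits), on the opposite strand, lay 313 bp from the untreated summit. No CTCF hit was found in either peak. The stretch that holds the summits is shown because a weaker SBS1 hit (10.8 bits) stands just upstream of the stronger one, on the same strand. It lies outside annotated exons and runs from 120 bp to 20 bp upstream of the canonical TSS, with both hits in capitals.
SNAPC4, chr9:136400190-136400290, minus strand: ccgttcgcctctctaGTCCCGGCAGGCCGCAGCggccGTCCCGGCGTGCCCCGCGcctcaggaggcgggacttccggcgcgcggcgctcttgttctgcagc

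SNAPC3 encodes a subunit that contacts the proximal sequence element together with SNAPC4. Among the 6 genes its promoter peak ranked highest in both lists. The gene (ENSG00000164975.16) lies at chr9:15422734-15465953 on the plus strand, with 7 transcripts and 6 distinct TSSs. Its untreated peak, chr9:15422465-15423108, was 644 bp wide and had a score of 60508, a fold enrichment of 29.4 and rank 538 (2.63% of the list, or 5.0% by fold enrichment). Its dTAG-V1 peak, chr9:15422387-15423125, was 739 bp wide and had a score of 20803, a fold enrichment of 25.4 and rank 521 (1.48% of the list, or 1.98% by fold enrichment). Best promoter peaks ranked as high or higher belonged to 8.15% of the genes with an untreated promoter peak and to 6.78% of those with a dTAG-V1 promoter peak.

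The summits of the SNAPC3 peaks were 28 bp apart, 97 bp and 125 bp upstream of the canonical TSS. The first SBS2 site shown above had the highest score of all hits in the peaks of the 6 genes (26.7 bits) and lay 33 bp from the untreated and 5 bp from the dTAG-V1 summit. The hit closest to the untreated summit, at 4 bp, was a weak SBS1 hit (7.74 bits). An SBS1 site scoring as high as this weak hit was present in 53.9% of untreated peaks and in 31.7% of dTAG-V1 peaks. For the first SBS2 site these shares were 3.69% and 1.43%. The second SBS2 site (14.9 bits) is on the other strand, the strand of the gene. With their flanks, both sites occur at 1 place in the genome. At least 2 SBS hits at p 1e-05 that did not overlap were present in 23.4% of the best promoter peaks of protein-coding genes in the untreated list, and on opposite strands in 14.3%. No CTCF hit was found in the SNAPC3 peaks. Both sites lie upstream of the canonical TSS, at 15422876, and just inside the transcript that starts farthest upstream, at 15422734.

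SNAPC1 and SNAPC5 encode smaller subunits, and SNAPC1 also contacts the proximal sequence element. SNAPC5 (ENSG00000174446.13) lies at chr15:66490135-66497780 on the minus strand, 235 bp from the end of RPL4, the gene of a ribosomal protein, which is transcribed on the same strand toward SNAPC5. The untreated promoter peak of SNAPC5, chr15:66497699-66498200, was 502 bp wide and had a score of 273, a fold enrichment of 3.91 and rank 7417 (36.3% of the list). The dTAG-V1 peak, chr15:66497584-66498992, was 1409 bp wide and had a score of 404, a fold enrichment of 4.44 and rank 4021 (11.4% of the list). The SNAPC5 peak was thus in decile 4 of the untreated list and in decile 2 of the dTAG-V1 list. By fold enrichment instead of score it stood at 44.3% of the untreated list and at 20.5% of the dTAG-V1 list.

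The SNAPC5 peaks differed from those of SNAPC3 and SNAPC4 in the motif at the summit. A CTCF hit (16.6 bits) lay 5 bp from the untreated summit and 49 bp from the dTAG-V1 summit, 108 bp upstream of the canonical TSS. A CTCF site scoring as high was present in 11.7% of untreated peaks and in 24.2% of dTAG-V1 peaks. A second CTCF hit (15.8 bits), the last of the sites shown above, lay in the 3′ UTR exon of RPL4. The untreated peak held no SBS hit, whereas 83.4% of protein-coding genes with an untreated promoter peak had one in it, and 57.6% had one at p 1e-05. A CTCF hit was present in an untreated promoter peak of 44.7% of these genes, and in 21.9% at p 1e-05. A CTCF hit at p 1e-05 within 50 bp of the summit was rarer, at 7.1% of the best untreated promoter peaks and 15.1% of the best dTAG-V1 promoter peaks. The stretch with the first CTCF hit, from 132 bp to 20 bp upstream of the canonical TSS of SNAPC5 and outside annotated exons, is shown with the hit in capitals.
SNAPC5, chr15:66497782-66497894, minus strand: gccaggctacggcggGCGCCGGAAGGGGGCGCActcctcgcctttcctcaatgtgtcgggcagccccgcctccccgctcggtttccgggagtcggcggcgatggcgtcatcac

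The dTAG-V1 peak of SNAPC5 was wide for a promoter peak, as 1.55% of the best dTAG-V1 promoter peaks had the same or a greater width. It covered 978 bp of RPL4, against 186 bp for the untreated peak, and 35.6% of its length was shared with the untreated peak.

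SNAPC1 (ENSG00000023608.5, chr14:61762420-61796428, plus strand) has 1 annotated transcript. It had no peak within its promoter window in either list, which was also the case for 48.4% of protein-coding genes. The nearest untreated peak was centred 44.5 kb from its TSS. The dTAG-V1 list held a pair of peaks in intron 1, both also inside a long noncoding RNA gene on the same strand. One, chr14:61764925-61765240, had a score of 41 and rank 31481 (89.2% of the list). The other, chr14:61765561-61766019, had a score of 34 and rank 33100 (93.8% of the list). Both ranked low in the list and neither held an SBS or a CTCF hit. The centre of the first lay 2663 bp downstream of the TSS and was the closest to the promoter window of all peaks left outside it.

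SNAPC2 (ENSG00000104976.13, chr19:7920338-7923250, plus strand) encodes a further subunit of SNAPc. Its promoter peak in the dTAG-V1 list, chr19:7919919-7920290, had a score of 34, a fold enrichment of 2.37 and rank 33100 (93.8% of the list). Of the protein-coding genes with a dTAG-V1 promoter peak, 97.8% had a best peak ranked as high or higher. Its −log10 q-value was 3.49, close to the lowest in the list, 2.01, and the peak was absent when a −log10 q-value of at least 5 was required. The SNAPC2 peak held weak hits only, for SBS2 (7.67 and 5.42 bits) and for CTCF (7.74 bits). The nearest untreated peak was centred 23.9 kb from the canonical TSS.

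POU2F1 (ENSG00000143190.23, chr1:167220876-167427345, plus strand) encodes a POU-domain factor that binds the octamer. The gene spans 206 kb and has 17 transcripts with 13 distinct TSSs. Its untreated promoter peak, chr1:167219968-167220498, had a score of 193, a fold enrichment of 3.33 and rank 9032 (44.2% of the list). Its dTAG-V1 promoter peak, chr1:167219784-167220493, had a score of 143, a fold enrichment of 2.86 and rank 14214 (40.3% of the list). Both were near the middle of their lists by score. By fold enrichment the untreated peak stood at 56.0% and the dTAG-V1 peak at 62.3% of its list.

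Unlike those of SNAPC3, SNAPC4 and SNAPC5, the POU2F1 promoter peaks stayed clear of the TSSs of their own gene. Their summits were 185 bp apart, 520 bp and 705 bp upstream of the canonical TSS. To the nearest TSS of POU2F1 the distances were 510 bp and 695 bp. Over all genes with a promoter peak, the median of this distance for the best peak was 117 bp in the untreated list. In the dTAG-V1 list it was 176 bp. The peaks lay over POU2F1-DT, a divergent long noncoding RNA gene with a TSS 222 bp from the untreated and 407 bp from the dTAG-V1 summit. They held SBS1 hits of low score (9.44 and 8.56 bits) and no CTCF hit. A CTCF hit of higher score (15.8 bits) was found between the peak and the canonical TSS, 257 bp from the untreated and 262 bp from the dTAG-V1 peak, where neither list had a peak. It is shown as a site with a close match and no peak over it.
POU2F1, CTCF, no peak, chr1:167220755-167220772, minus strand: ccgggCGCGCGCCAGGGGGCGCGcgagg

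**Figure D2:**
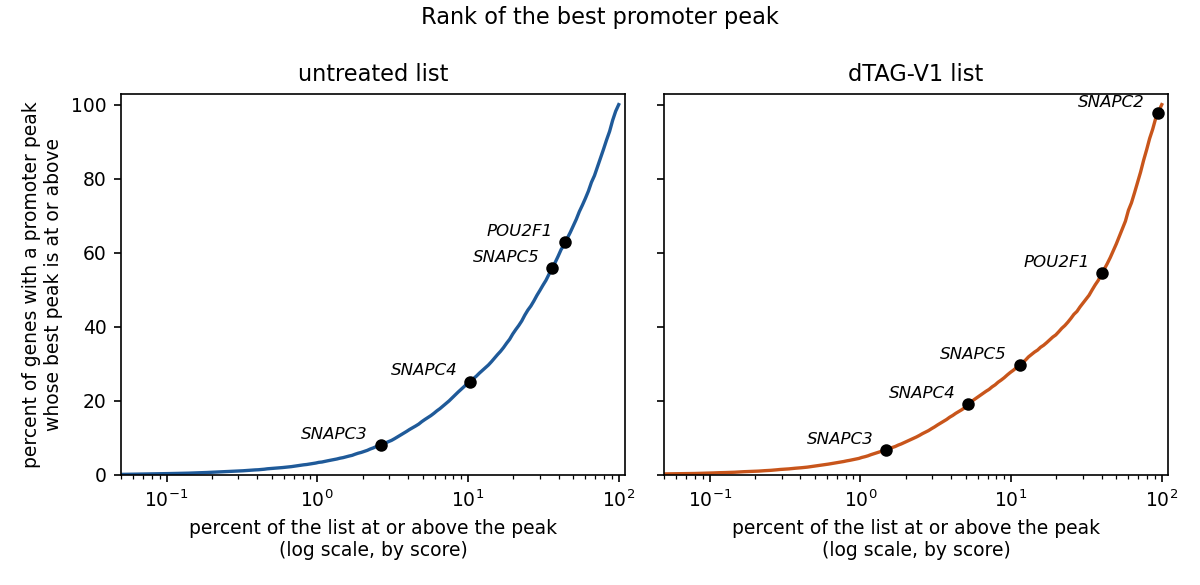
Place of the best promoter peak in its list, in percent of the list with the same or a higher score (x axis, log scale), against the percent of protein-coding genes with a promoter peak whose best peak is placed as high or higher (y axis). The curve runs over 8097 genes in the untreated list (left) and 9635 in the dTAG-V1 list (right), and dots are the genes named. SNAPC3 and SNAPC4 lie at the high-ranking end in both lists, POU2F1 near the middle and SNAPC2 at the low-ranking end of the dTAG-V1 list.

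The order of the shared promoter peaks by score was the same in both lists, SNAPC3 above SNAPC4 above SNAPC5 above POU2F1. As no replicate values were given, whether neighbours in this order differ beyond replicate error could not be tested. By score, each of the 4 peaks stood at a smaller percent of the dTAG-V1 list than of the untreated list, which by fold enrichment held for 3 of them and not for POU2F1. By score the same held for the best peaks of 5242 of 7118 genes with overlapping promoter peaks, or 73.6%. The dTAG-V1 list is the longer one, and in plain ranks POU2F1 went from 9032 to 14214 while the other 3 went to smaller ranks. The share was 71.0% for genes whose best untreated promoter peak held an SBS hit and no CTCF hit at p 1e-05, as at SNAPC3 and SNAPC4, and 83.7% for those with a CTCF hit and no SBS hit, as at SNAPC5.

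In the dTAG-V1 promoter peaks an SBS hit was found for all 5 genes, against 77.6% of protein-coding genes with such a peak, and a CTCF hit for SNAPC2 and SNAPC5, against 50.9%. At p 1e-05, an SBS hit remained for SNAPC3, SNAPC4 and SNAPC5, against 48% of genes, and a CTCF hit for SNAPC5 alone, against 28.8%. Those of SNAPC3 and SNAPC4 lay within 100 bp of the summit. That of SNAPC5 did not, and lay in the part of the dTAG-V1 peak that the untreated peak did not cover. The letters of this SNAPC5 site occur at 23322 places in the genome, and it is not described further here.

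Matches at p 1e-05 were also present where no peak was called. The promoter window of the canonical TSS held 4 SBS matches at SNAPC2 and 2 at SNAPC1, none of them within a peak. Such windows held an SBS match for 81.9% of all protein-coding genes, for 86.6% of those with a promoter peak in either list and for 76.9% of those with none. Matches outside the peaks of both lists were also present at SNAPC3, SNAPC4 and SNAPC5. The one of highest score was a CTCF match at SNAPC5 (19.8 bits), 812 bp from the untreated and 20 bp from the dTAG-V1 peak. A CTCF match was held by the windows of 43.2% of all protein-coding genes.

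The promoter sequences of RefSeq (GRCh38.p14), which run from 250 bases before to 50 bases after the gene start, were searched for further motifs on both strands. The table held 8 such promoters for 5 of the 6 genes and SNAPC4 was not matched. POU2F1 had 3 entries, and those that start at chr1:167220635 and chr1:167220636 cover nearly the same bases, so that they are not separate observations. The GC content was 60.0% at SNAPC1, 68.0% at SNAPC3, 61.0% at SNAPC5, 66.3% and 64.3% at SNAPC2 and 67.7% at the first promoters of POU2F1, above the median of 58.7% over 34789 promoters. The internal promoter of POU2F1 had 39.0%. The octamer ATGCAAAT was found in 1.77% of all promoters and, among those of the 5 genes, only in that internal promoter. It is shown there on the promoter strand, in capitals, 179 bases before the start. The nearest peak was centred 105 kb away in the untreated list and 60.9 kb away in the dTAG-V1 list.
POU2F1, octamer, chr1:167328891-167328898, plus strand: gaggagagATTTGCATaaggccct

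The ETS motif ACTTCCGG and the NRF1 core GCGCATGC, present in 4.12% and 3.02% of all promoters, were found in none of these 8. SNAPC4 was not in this search, and the stretch of it shown above holds ACTTCCGG 1 time. An SBS hit was present in 53.6% of all promoters, among them SNAPC3 and 2 of the 3 of POU2F1, and at p 1e-05 in 25.5%, among them SNAPC3 alone of the 5 genes. A CTCF hit was present in 23.8%, among them SNAPC1, 1 of 2 of SNAPC2, SNAPC5 and 2 of the 3 of POU2F1, and at p 1e-05 in 9.18%, among them SNAPC5 and the same 2 of POU2F1.

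POU2F1 was the 1 gene of the 6 with a gene-body peak in both lists. The untreated peak in intron 1, chr1:167223780-167224035, had a score of 76 and rank 15018 (73.5% of the list). The overlapping dTAG-V1 peak, chr1:167223829-167224158, had a score of 61 and rank 26319 (74.6% of the list). Their centres lay 3010 bp and 3096 bp downstream of a TSS, outside the promoter window, and neither held a hit. Within the window, the peak farthest from a TSS was the dTAG-V1 promoter peak of POU2F1 itself, with its centre 737 bp upstream.

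When the 2 lists were merged, 20412 of 40687 regions came from the dTAG-V1 list alone and 14794 from both. The dTAG-V1 list held a further pair of POU2F1 peaks with no untreated counterpart, each with a CTCF hit and no SBS hit. The first, chr1:167267826-167268205 in intron 1, had a score of 112 and rank 17772 (50.4% of the list), and its CTCF hit (18.7 bits) lay 9 bp from the summit. The second, chr1:167401225-167401524, had a score of 85 and rank 21812 (61.8% of the list), with its summit in intron 12. Its CTCF hit (16.7 bits) lay 46 bp from the summit and ran 8 bases into the coding exon that follows. These sites are shown because they are the 2 CTCF hits in gene-body peaks of the 6 genes.
POU2F1, CTCF, intron 1, chr1:167268005-167268022, plus strand: gtgttTACCCTGCAGGTGGCGCTggtgg
POU2F1, CTCF, intron 12 and next exon, chr1:167401441-167401458, plus strand: atttcTGACCTCAAGGTGGCGACcacac

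A site scoring as high as the first was present in 17.1% of all dTAG-V1 peaks and in 8.58% of all untreated peaks. For the second the shares were 23.9% and 11.6%. In the untreated list, SBS and CTCF hits were thus absent from the gene-body peak of POU2F1. In the dTAG-V1 list 2 of the 5 gene-body peaks of the 6 genes held a CTCF hit and none held an SBS hit. Of all dTAG-V1 peaks, 50.3% held a CTCF hit and 42.9% an SBS hit, and shares for gene-body peaks alone were not computed.

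**Figure D3:**
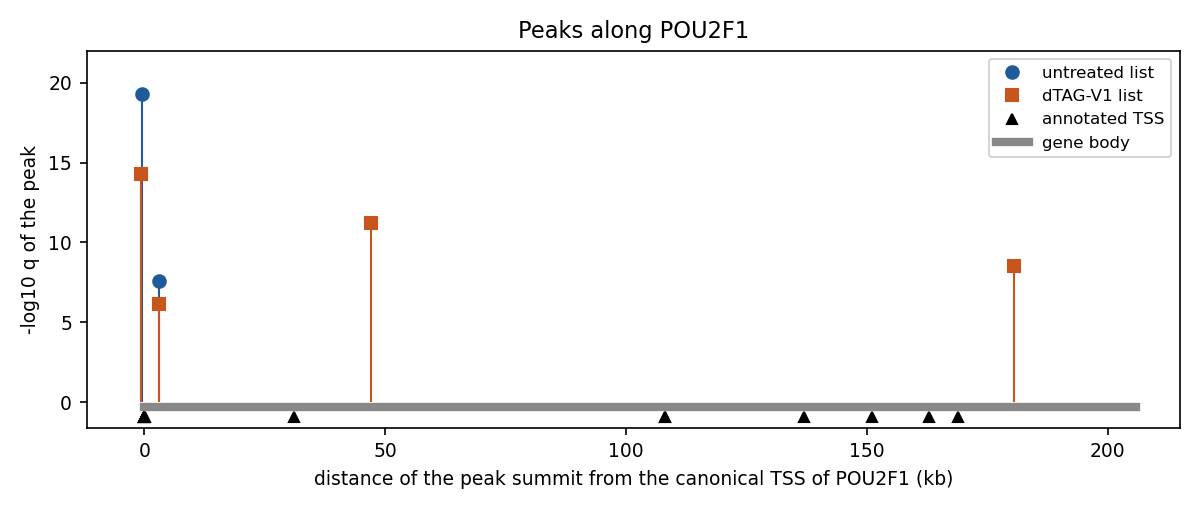
Peaks along POU2F1 by distance of the summit from the canonical TSS, in kb, against the −log10 q-value that the peak has in its own list. Blue dots are untreated peaks, orange squares dTAG-V1 peaks, the grey bar the gene and black triangles annotated TSSs. The promoter and intron 1 peaks near the TSS are in both lists, and the peaks 47118 bp and 180517 bp downstream are in the dTAG-V1 list alone.

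Other genes of snRNA transcription were taken from a list of 35 genes of the same pathway, grouped by role. A promoter peak was present for 24 of the 35 in the untreated list (68.6%, 52.0% to 81.4%) and for 28 in the dTAG-V1 list (80.0%, 64.1% to 90.0%), and 24 had overlapping peaks in both. Of 10 basal factors, 9 had an untreated promoter peak and all 10 had a dTAG-V1 one. Of 15 Integrator genes, whose products cleave the 3′ end of snRNA transcripts, 11 and 12 had one. Of 4 genes of the little elongation complex, 2 and 3 had one, and of 6 activators and cofactors, 2 and 3.

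**Figure D4:**
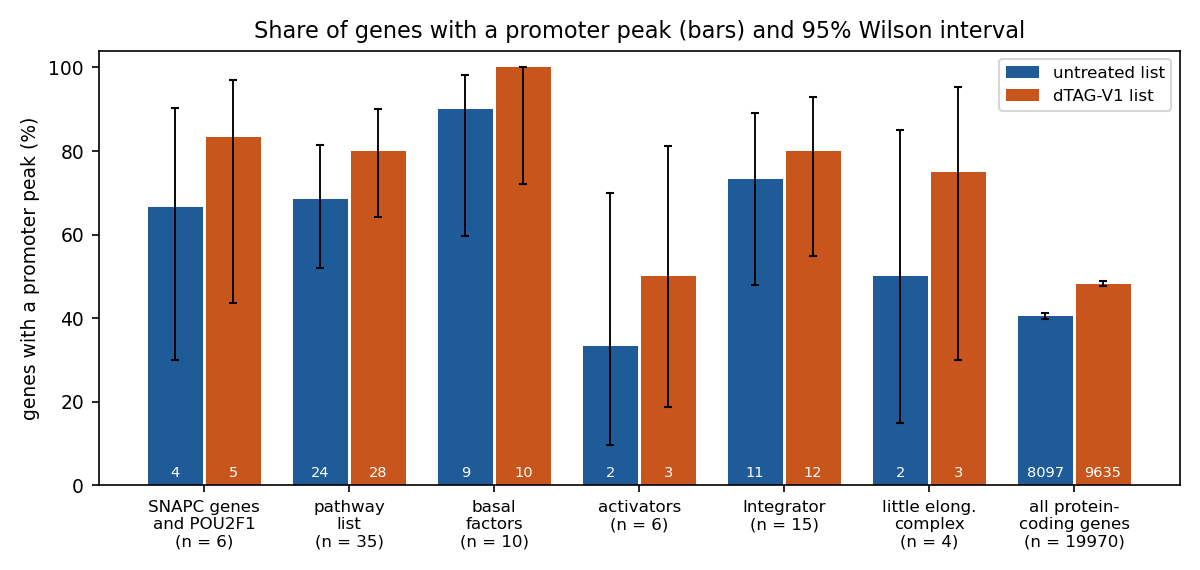
Percent of genes with a promoter peak in the untreated list (blue) and the dTAG-V1 list (orange), with 95% Wilson intervals as error bars and the number of genes with a peak at the foot of each bar. Groups are SNAPC genes and POU2F1, the pathway list of 35 genes, its 4 roles, and 19970 protein-coding genes. The shares of the 6 genes, 66.7% and 83.3%, lie above the 40.5% and 48.2% of all genes, with intervals that are wide.

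The highest untreated scores in that list belonged to INTS9, an Integrator subunit, ZNF143 itself and GTF2E1, a subunit of the basal factor TFIIE. INTS9 ranked at 0.421% of the untreated list and 0.275% of the dTAG-V1 list. GTF2E1 ranked at 3.26% and 2.6%. ZNF143 ranked at 2.56% and 5.74%, or rank 524 and rank 2024. No promoter peak was found in either list for INTS10, INTS11 and INTS15 of Integrator, ZC3H8 of the little elongation complex, or POU2F2, POU2F3 and POU2AF1. The last 3 encode the OCT2 and OCT11 relatives of POU2F1 and a cofactor of POU factors.

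For the 4 genes with peaks in both lists, the protein-coding genes most alike were sought by the sum of the differences of their percent places in the 2 lists, over 7424 genes. SNAPC3 was closest to ZNF84 and RPS3 (sums of 0.11 and 0.12 percentage points), and SNAPC4 to AGAP1 and WAPL (0.15 and 0.19). SNAPC5 was closest to POLR3C and RNF115, which share 1 peak (0.65 for both), and POU2F1 to PHKA2 and SNU13 (0.9 and 0.92). Apart from POU2F1-DT, the other genes whose promoter windows held a promoter peak of the 6 genes were MIR4512, a microRNA gene 728 bp from the TSS of SNAPC5, and a long noncoding RNA gene, ENSG00000260500, next to SNAPC2.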

How the data were processed

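ChIP-seq peaks of the Proteintech anti-ZNF143 antibody were deposited as 1 list per condition. Per the methods, the authors mapped reads to hg38 with bwa mem, kept uniquely mapped proper pairs, removed duplicates with Picard and called narrow peaks with MACS2, and peaks in blacklisted regions or on other than canonical chromosomes were left out. No control library is named for the call. The methods define a reproducible untreated peak as one found in all 4 replicates and a dTAG-V1 peak as one found in at least 1 of 4. Whether the deposited lists are those is not stated, and such a rule would bear on list length and on peaks of the dTAG-V1 list alone. The deposited score is 10 times the −log10 q-value, the deposited fold enrichment is a ratio at the summit, and the deposited −log10 q-value comes from the same call (the −log10 p-value beside it was not used). Peak names of the untreated list mention DMSO and the labels were followed. Because a peak near the threshold can enter 1 list and not the other, presence was not read as a change of binding.

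TSSs were taken from GENCODE release 44. Matrices were learned from merged peaks of 16 autosomes, starting from sites within 2 mismatches of a written consensus, over 10 rounds with sites at p 1e-06 and a pseudocount of 0.8. Overlap meant 1 bp or more. No test was run, since the lists hold no replicate values. The 6 genes, the pathway list and all rules were chosen with earlier results of these data known. Named genes were the 6, those sharing their promoter peaks, the 3 pathway genes with the highest untreated scores and those with no promoter peak, and the 2 most alike genes. Steps were run with Python 3.11.15, numpy 2.4.6, pandas 2.3.3, numba 0.67.0, pysam 0.24.0 and samtools 1.23.1 and were checked on simulated data. Alternatives changed the window, the q-value, the overlap, the motif threshold and the ranking value. The sequence of 1 site is not reported here.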

Additional observations from a re-analysis of the deposited data

How the results depend on the processing

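Of 91 alternative values, 71 stayed within 1.5 times the reported one. With peak centres within 500 bp of a TSS, 3 of the 6 genes had a dTAG-V1 promoter peak instead of 5, and 2 had overlapping peaks in both lists instead of 4, since the SNAPC5 dTAG-V1 peak is centred 508 bp from a TSS and the POU2F1 peaks lie farther out. At a −log10 q-value of at least 10, 6417 protein-coding genes had a dTAG-V1 promoter peak instead of 9635, and at 5 the gene-body peaks of the 6 genes in the dTAG-V1 list numbered 3 instead of 5. SBS hits in dTAG-V1 promoter peaks were found for 3 genes instead of 5 at p 1e-05 and within 100 bp of the summit. They were also found for 3 at p 1e-06, chosen after the data were seen, and for 2 with the written consensus. At p 1e-05 and p 1e-06 the genes were SNAPC3, SNAPC4 and SNAPC5. Within 100 bp of the summit they were SNAPC2, SNAPC3 and SNAPC4. For CTCF the count fell from 2 to 1 with the first 3 of these changes, and in the untreated list rose from 1 to 2 with the written consensus. Of 27 alternative ranks, 8 moved by more than 1.5 times. No paired analysis was possible because the lists carry no replicate values. The depth of the libraries is unknown, so that a peak missing from a list was not detected in that call, which does not show that it is absent.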
